A study of Mus musculus with 18 samples.

Results

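The 8 genes described here are *Fbxo2*, 4 F-box genes of its family (*Fbxo6*, *Fbxo44*, *Fbxo17* and *Fbxo27*), the ligase subunit genes *Skp1a* and *Cul1*, and the deglycosylase gene *Ngly1*, of 47729 genes in the count table. *Fbxo2* was selected on its own rise in these libraries, which was among the largest of all genes, and the other members were added by name, as relatives, chromosomal neighbours or partners in the same pathway. The change of *Fbxo2* is therefore given as a description, with no test. Per the labels, RNA was profiled from 9 *rd1* mice, which in the study are of the FVB/N strain and lose their rods through a mutation of *Pde6b*, at an age of 40 postnatal days. The methods of the study give fewer pairs for *rd1* mice of this age than the labels do, with further pairs of CD1 mice, whose retina does not degenerate, and both together come to as many pairs as the labels list as *rd1*. Whether the libraries are all of *rd1* mice was not resolved and rests on the labels, which were followed. If they were not, each group would mix strains and genotypes, though by the labels each mouse would still be compared with itself. In each mouse, 1 eye received the AAV vectors Best1-Nrf2 and Best1-GFP (called Best1-Nrf2 here) and the fellow eye received Best1-GFP without the other vector (control), so both eyes carried GFP. The human Best1 promoter drives expression in the retinal pigment epithelium (RPE), and the Nrf2 cDNA is human. Its reads cannot be told from those of mouse *Nfe2l2* in a count per gene. The RNA came from the eyecup after the retina had been taken off.

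F-box proteins are the parts of SCF ubiquitin ligases that choose the substrate. *Skp1* joins the F-box protein to the scaffold *Cul1*, which also holds the ring subunit that recruits the ubiquitin-conjugating enzyme. The family of *Fbxo2* carries a domain that in several of its members binds N-linked sugar chains, and *Fbxo2* in particular binds high-mannose chains of glycoproteins that have been taken back from the endoplasmic reticulum (ER) to the cytosol for degradation. *Ngly1* removes N-linked chains from such proteins in the cytosol, and it also acts on *Nfe2l1*, a transcription factor related to Nrf2. *Fbxo2* is best known from neurons and from the inner ear. The RPE is a single layer of pigmented cells that takes up and digests shed photoreceptor outer segments, which are rich in glycoproteins. Nrf2, encoded by *Nfe2l2*, is a transcription factor that induces antioxidant and detoxification genes.

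*Fbxo2*, *Fbxo44* and *Fbxo6* lie side by side on chromosome 4 (GRCm38). *Fbxo2* is on the plus strand at chr4:148160621-148166424, with 6 exons. *Fbxo44* is on the minus strand at chr4:148152800-148160482, and *Fbxo6* is on the minus strand at chr4:148145716-148152140. *Fbxo44* and *Fbxo2* are transcribed away from each other, with 138 bases between their annotated starts, and 659 bases separate the start of *Fbxo6* from the end of *Fbxo44*. The stretch between the starts of *Fbxo44* and *Fbxo2* is shown because the genes on its sides differed widely in their change. It is the plus strand of chr4:148160483-148160620 (RefSeq, GRCm38.p6), 77.5% of its bases are G or C, and the capitals mark its single GC box, GGGCGG, searched on both strands.
Fbxo44-Fbxo2 gap: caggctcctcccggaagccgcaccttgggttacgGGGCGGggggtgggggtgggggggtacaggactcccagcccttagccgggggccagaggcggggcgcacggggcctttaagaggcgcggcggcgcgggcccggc
The promoter tables of RefSeq (250 bases before to 50 after each start) had at least 1 window for each of the 8 genes, with *Skp1a* listed as *Skp1*. The core of the antioxidant response element to which Nrf2 binds, TGACNNNGC on either strand, was in none of the windows of *Fbxo2*, *Fbxo44* and *Fbxo6*, and in 12.4% of all 32851 promoters. It was in 1 window of *Fbxo27*, as TGACCCCGC on the minus strand 169 bases before the start. The AP-1 core TGANTCA, which 7.81% of promoters held, was found among these genes in 1 window of *Cul1*, and GGGCGG, which 35.7% held, was in windows of *Fbxo2*, *Fbxo44*, *Fbxo6*, *Fbxo17*, *Cul1* and *Ngly1*. A match of letters is no proof of a site, and enhancers farther away were not examined. The single *Fbxo2* window was chr4:148160418-148160717. The gene record of RefSeq for *Fbxo2* begins farther upstream, at base 148160198, so that it shares 285 bases with the *Fbxo44* gene, and the stretch before that start was not searched as a promoter of *Fbxo2*. In addition, the sources used here do not state that strand was used in counting. No 31-base word of the exons of *Fbxo2*, *Fbxo44*, *Fbxo6* or *Fbxo27* occurred in another gene.

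Library totals were between 18956748 and 49598700 counts, and the 8 genes had from 98 (*Fbxo17*) to 31625 (*Skp1a*) counts in a library. All 8 passed the filter on low counts. *Nfe2l2* was at 76.7 to 134 CPM (counts relative to the library total as scaled by TMM) in control eyes and at 275 to 704 CPM in Best1-Nrf2 eyes, so the labels held in all 9 mice. Of 18958 genes tested with mouse as a block, 4.25% were called at an adjusted p of 0.05 (edgeR quasi-likelihood test with Benjamini-Hochberg adjustment), 3.12% as higher and 1.13% as lower with Best1-Nrf2, and 1.17% had levels that did not overlap between groups. RPE markers were abundant in every library, at summed levels of 14848 to 73145 CPM in control eyes (median 44380). With Best1-Nrf2 they were at 18266 to 82273 CPM (median 23048), higher in 4 of 9 mice, with 6 of 22 called lower and 0 higher. Among those called, *Rpe65* fell from a mean of 2021 to 297 CPM and *Rgr* from 8589 to 3237 CPM. *Ttr* had the highest mean and varied widely (12874 ± 12360 CPM in control eyes, SD, n = 9), so the sum depends much on it. Markers of other cells of the eye were present too. Cone markers were lower in all but 1 of the Best1-Nrf2 eyes than in the fellow eyes (321 to 2320 CPM against 72.2 to 546 CPM, 9 of 11 called lower), and macrophage and microglia markers were higher in 7 of 9 mice (274 to 611 CPM against 357 to 1106 CPM, 13 of 20 called higher). In bulk RNA, fewer cells of a type and less RNA per cell cannot be told apart. Control eye 8 had the lowest mean level of RPE markers of all 18 libraries (7.67 on the log2 CPM scale, with the other control eyes at 8.72 to 9.35), and Best1-Nrf2 eye 6 had the highest mean levels of cone markers (4.44) and inner retina neuron markers (6.21) among the treated eyes. Results that rest on these mice are given without them below.

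*Fbxo2* was a gene of low level in control eyes and among the most abundant ones in Best1-Nrf2 eyes. In control eyes it was at 5.06, 6.20, 6.05, 2.73, 8.02, 3.603, 7.71, 12.4 and 10.6 CPM in mice 1 to 9. In the fellow Best1-Nrf2 eyes of the same mice it was at 220, 592, 167, 723, 655, 156, 709, 264 and 391 CPM. The groups did not overlap, with the lowest treated eye, that of mouse 6, far above the highest control eye, that of mouse 8. The means were 6.93 ± 3.15 CPM and 431 ± 239 CPM (SD, n = 9 each), and the fitted difference was 5.84 ± 0.40 on the log2 scale (SE), a 57.3-fold difference. Within mice the fold ran from 21.2 in mouse 8, whose control eye had the highest level, to 265 in mouse 4, whose control eye had the lowest. These levels rest on 125 counts or more in every library, so counting error is small beside the spread between eyes. The difference was 5.90 without mouse 6 and 6.02 without mouse 8, and of the 11809 genes whose log2 CPM averaged 2 or more it was number 2 in order of rise. It was 5.84 with rod and cone marker levels as a covariate, with an SE of 0.87. As cone markers differed between the eyes of nearly every mouse, this covariate overlaps with treatment. *Nfe2l2*, whose human cDNA the vector carries, also lost its call under it (adjusted p = 0.163, edgeR). A call lost in that fit is therefore no test of a cause. Inner retina neuron markers, the class of cells from which *Fbxo2* is best known, summed to 845 to 1497 CPM in control eyes. With Best1-Nrf2 they summed to 856 to 2420 CPM and were higher in 6 of 9 mice. Of the 18 tested, 1, *Nefm*, was called higher and none lower. *Trpm1*, *Pax6* and *Slc6a9* had the highest means of them in control eyes (490, 325 and 150 CPM), with the next, *Snap25*, at 55.2 CPM. The sum thus rests mainly on a few genes and is a poor measure of neurons as a whole. The part of these markers in the *Fbxo2* level was not tested.

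**Figure D1:**
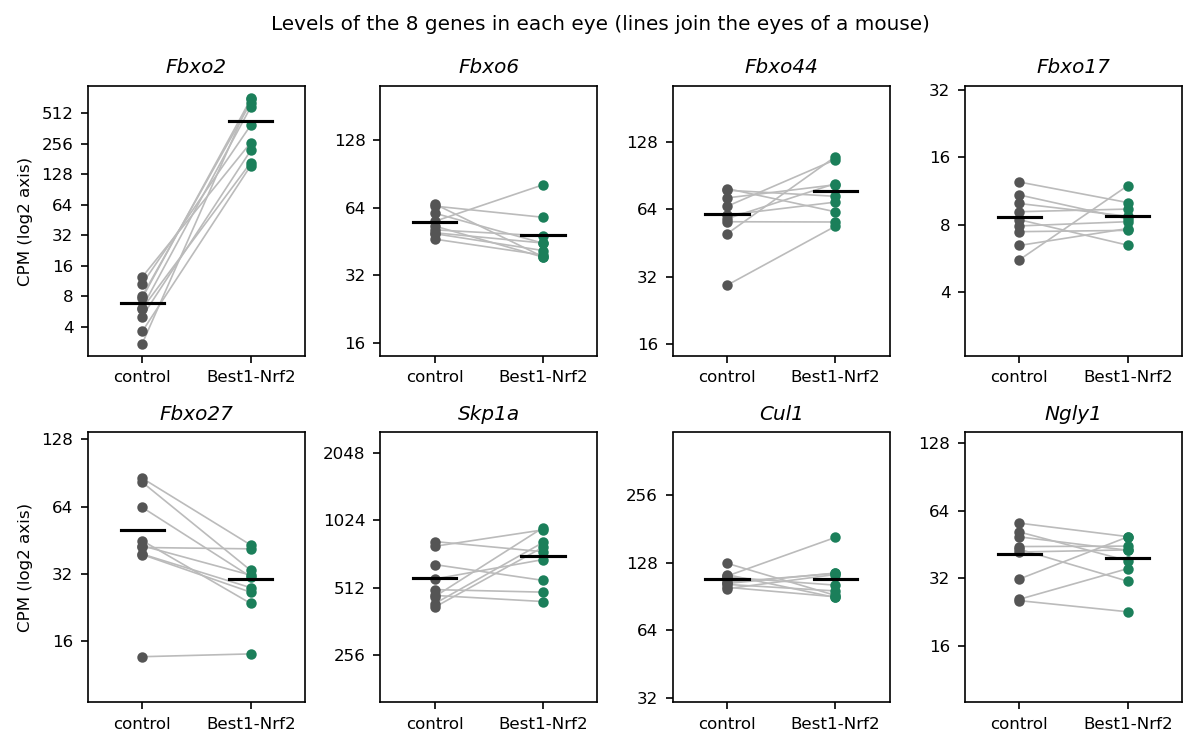
Each panel plots CPM on a log2 axis for 1 gene in the 9 control and 9 Best1-Nrf2 eyes. Points are eyes, grey lines join the eyes of a mouse, and black bars are group means. The Fbxo2 groups do not overlap (2.73 to 12.4 against 156 to 723 CPM), while those of the other 7 genes do.

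Per length of exon, *Fbxo2* moved from near the bottom of the 8 genes to a level like that of *Skp1a*. In control eyes the order of the means, in CPM per kb, was *Skp1a* (257), *Cul1* (26.7), *Fbxo6* (25.04), *Fbxo44* (20.2), *Fbxo27* (16.4), *Ngly1* (5.43), *Fbxo2* (5.38) and *Fbxo17* (3.49). Among neighbours in that order, the level of *Skp1a* was above that of *Cul1*, that of *Fbxo44* above that of *Fbxo27* and that of *Fbxo27* above that of *Ngly1* (2-sided exact sign-flip permutation tests over 9 libraries, adjusted p of 0.0127, 0.0290 and 0.0127 over 13 such tests). *Cul1* and *Fbxo6* (adjusted p = 0.310), and *Fbxo6* and *Fbxo44* (0.0698), did not differ beyond their spread in these permutation tests. For the pairs with *Fbxo2* no test result is given, as its control level is part of the rise on which it was selected. Those pairs still count among the 13 tests of the adjustment. In Best1-Nrf2 eyes *Fbxo2* was at 335 ± 186 CPM per kb (SD, n = 9) and *Skp1a* at 320 ± 82.4 CPM per kb. Among all 18871 genes ranked per length, *Fbxo2* was number 6451 in control and number 188 in Best1-Nrf2 eyes. Of the summed per-length level of the 5 F-box genes, *Fbxo2* made up 3.66% to 18.8% in control eyes (median 7.59%) and 70.6% to 88.8% in Best1-Nrf2 eyes (median 83.4%). The other 4 together had a median of 64.5 CPM per kb in control and 60.4 CPM per kb in Best1-Nrf2 eyes.

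**Figure D2:**
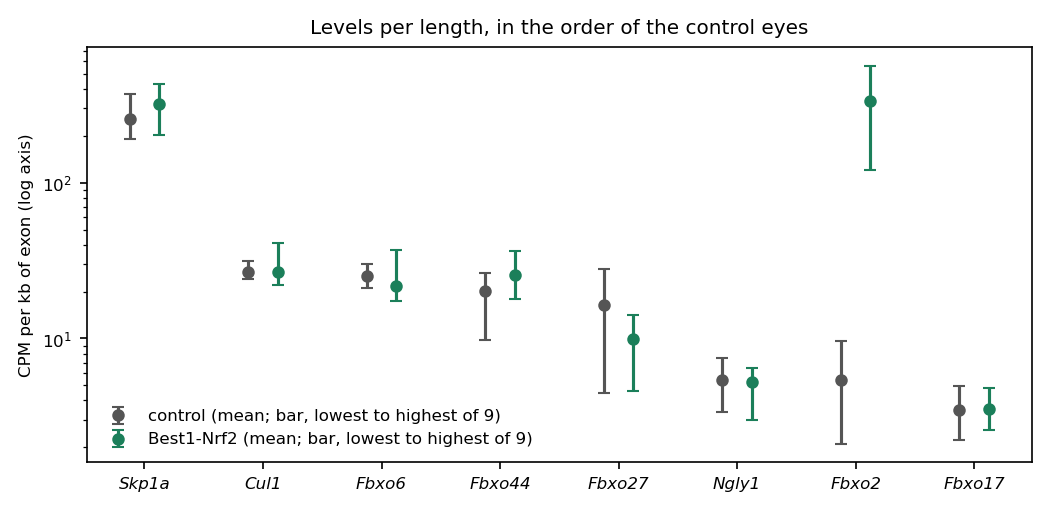
The plot gives CPM per kb of exon on a log axis for the 8 genes, in the order of the control eyes. Points are means of 9 eyes and bars run from the lowest to the highest eye. Fbxo2 sits at 5.38 in control and 335 in Best1-Nrf2 eyes, beside Skp1a at 257 and 320.

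None of the other 7 genes was called by edgeR, where 4.25% of all genes tested were, and in each of them the groups overlapped. At an unadjusted p of 0.05, and with DESeq2, 1 of the 7 passed, *Fbxo27*, as lower. Of all genes, 7.55% were higher and 5.29% lower at that unadjusted p in edgeR, and DESeq2 called 4.96% higher and 2.84% lower. *Fbxo44*, the gene that shares the short start region with *Fbxo2* and the relative in which sugar binding is least established, had levels of 79.3, 72.0, 56.4, 49.8, 58.1, 60.4, 66.0, 29.4 and 77.9 CPM in the control eyes of mice 1 to 9. In their Best1-Nrf2 eyes it was at 62.5, 82.5, 56.2, 110, 83.5, 69.0, 107, 53.9 and 73.2 CPM. The level was higher with Best1-Nrf2 in 6 of 9 mice, and the highest treated eyes were those of mice 4 and 7, which also had the highest levels of *Fbxo2*. The log2 fold change was 0.35 (95% interval, -0.03 to 0.73; adjusted p = 0.438, edgeR), so the interval leaves out any difference as large as that of *Fbxo2*.

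*Fbxo6*, which like *Fbxo2* binds glycoproteins bound for ER-associated degradation, was at 46.4 to 66.6 CPM in control eyes (median 53.1) and at 38.6 to 81.1 CPM in Best1-Nrf2 eyes (median 44.5). It was lower with Best1-Nrf2 in all mice but 1, by little (log2 fold change, -0.23, 95% interval, -0.55 to 0.09; adjusted p = 0.611, edgeR). *Fbxo17* was at 5.59 to 12.4 CPM in control eyes and, with Best1-Nrf2, 6.50 to 11.98 CPM, with medians of 8.44 and 8.51 CPM. Its log2 fold change was 0.02 (95% interval, -0.40 to 0.44; adjusted p = 0.985, edgeR), and 1.86% of its 31-base words occurred in other genes.

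*Fbxo27*, known for marking glycoproteins of damaged lysosomes, lies 17465 bases before *Fbxo17* on chromosome 7 (chr7:28692849-28699338). It was at 82.1, 63.4, 39.3, 42.0, 39.1, 45.1, 42.8, 13.7 and 85.6 CPM in the control eyes of mice 1 to 9 and at 33.2, 31.1, 27.8, 41.4, 26.5, 23.6, 31.6, 14.1 and 43.1 CPM in their Best1-Nrf2 eyes. The level was lower with Best1-Nrf2 in every mouse but mouse 8, whose eyes were both far below the rest. The log2 fold change was -0.64 ± 0.17 (SE; 95% interval, -1.01 to -0.27), with an adjusted p of 0.0593 (edgeR), just short of the threshold. *Fbxo27* passed without mouse 8 (-0.72, adjusted p = 0.0412, edgeR) and with DESeq2 (adjusted p = 0.0139). It did not pass when any other mouse was left out (without mouse 1, -0.50, adjusted p = 0.210, edgeR). Nor did it pass with no replicate block (-0.73, adjusted p = 0.216, edgeR). With photoreceptor marker levels as a covariate it was -0.39 (adjusted p = 0.671, edgeR). The control eyes with the highest levels, those of mice 9, 1 and 2, were also the control eyes with the highest mean levels of cone markers (7.09, 6.47 and 6.59 on the log2 CPM scale). Their mean levels of RPE markers were the highest of the control eyes too (9.26, 9.35 and 9.27). Over all 9 eyes of a group, *Fbxo27* against the mean cone marker level had an r of 0.709 in control eyes (adjusted permutation p = 0.0997; rho = 0.550, adjusted permutation p = 0.398; r = 0.556 without eyes 2 and 9) and -0.333 in Best1-Nrf2 eyes (adjusted permutation p = 0.678; rho = -0.567, adjusted permutation p = 0.398; r = -0.457 without eyes 1 and 6).

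*Skp1a*, the adaptor, was at 419 to 822 CPM in control eyes and, with Best1-Nrf2, 444 to 948 CPM (medians 502 and 741), with a log2 fold change of 0.31 (95% interval, -0.10 to 0.73; adjusted p = 0.582, edgeR) and a higher level in 5 of 9 mice. *Cul1*, the scaffold, was at 97.9 to 127 CPM and 89.5 to 166 CPM (medians 104 and 102), with a log2 fold change of -0.01 (95% interval, -0.32 to 0.30; adjusted p = 0.989, edgeR). *Ngly1* was at 25.4 to 56.3 CPM and 22.7 to 49.1 CPM (medians 43.1 and 42.6), with a log2 fold change of -0.04 (95% interval, -0.37 to 0.29; adjusted p = 0.963, edgeR). The fitted differences of *Cul1*, *Ngly1* and *Fbxo17* were smaller than their errors, and their sign changed with the scaling or the mice included. *Skp1a* shared 5.53% of its words with other genes and overlaps an antisense RNA, *Cul1* shared 3.30% with a pseudogene inside it, and *Ngly1* overlaps *Oxsm* on the other strand, so some of their reads are uncertain.

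The genes around *Fbxo2* differed far less between the eyes. Beside *Fbxo44* and *Fbxo6*, 10 of the 12 nearest protein-coding genes were tested, and 1 was called higher and 0 lower, where 3.12% and 1.13% of all genes were. With so few genes, 1 call says nothing of the region. *Agtrap* and *Mad2l2*, on the side of *Fbxo6*, had log2 fold changes of -0.49 and -0.41 and were not called, and *Mtor*, on the other side, had 0.02. The gene called was *Angptl7*, which encodes a secreted angiopoietin-like protein, at a distance of 340 kb. *Angptl7* lies within *Mtor*, on the other strand, so some of its reads are uncertain if strand was not used in counting. Its mean was 5.97 ± 2.16 CPM in control eyes and rose to 17.5 ± 6.63 CPM (SD, n = 9), with a log2 fold change of 1.56 (adjusted p = 0.000375, edgeR) and a higher level in 9 of 9 mice.

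**Figure D3:**
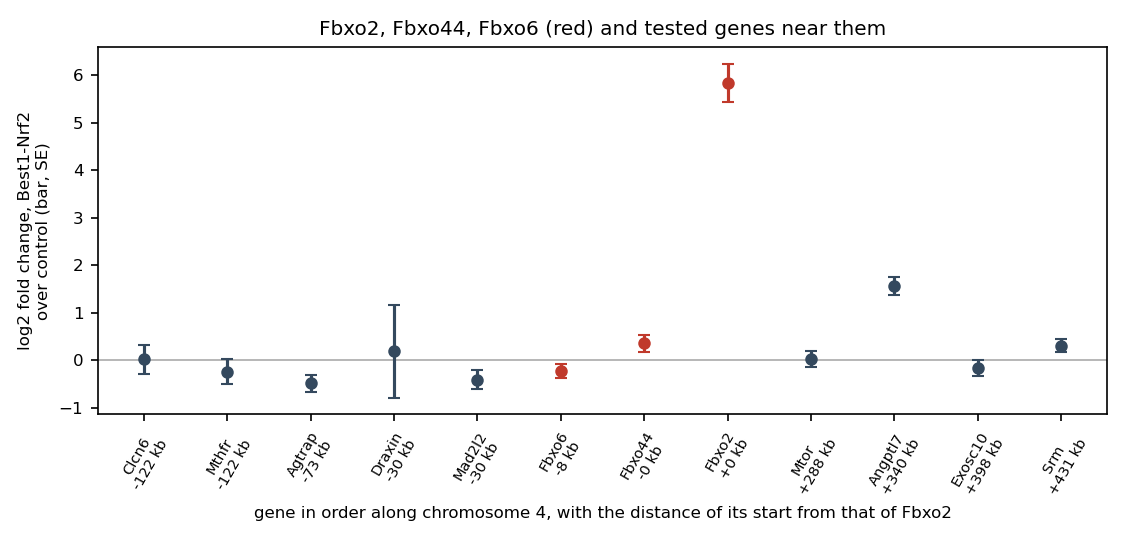
The plot gives the log2 fold change of Best1-Nrf2 over control eyes for Fbxo2, Fbxo44, Fbxo6 (red) and tested genes near them on chromosome 4, in their order, with the distance of each start from that of Fbxo2 in kb. Bars are SE. Fbxo2 stands at 5.84, Angptl7 at 1.56 and the rest between -0.49 and 0.35.

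Among Best1-Nrf2 eyes, eyes with more *Nfe2l2* RNA had more *Fbxo2* RNA, and the same held for *Fbxo44*. These relations were computed within a group, so they do not use the difference between groups on which *Fbxo2* was selected. For *Fbxo2* against *Nfe2l2* in log2 CPM, r was 0.847 (2-sided exact permutation p = 0.00654, 0.0449 adjusted over 20 relations) and rho was 0.933 (permutation p = 0.000750, adjusted 0.0150), and r was 0.799 without mice 6 and 8, the eyes farthest from the median. For *Fbxo44* against *Nfe2l2*, r was 0.833 (permutation p = 0.00673, adjusted 0.0449) and rho was 0.883 (permutation p = 0.00308, adjusted 0.0308), and r was 0.865 without the same mice. *Fbxo2* and *Fbxo44* also rose and fell together over these eyes, with an r of 0.850 (permutation p = 0.00519, adjusted 0.0449), a rho of 0.850 (permutation p = 0.00607, adjusted 0.0405) and an r of 0.772 without mice 4 and 7. The other 6 genes had values of r against *Nfe2l2* of -0.433 (*Cul1*) to 0.610 (*Fbxo27*) in these eyes, and none passed the adjustment. *Fbxo6*, the other neighbour, had an r of 0.010 against *Fbxo2*. That these relations are particular to *Fbxo2* and *Fbxo44* was not tested.

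In control eyes, where *Nfe2l2* RNA is the mouse gene's own, no relation passed the adjustment. *Fbxo2* against *Nfe2l2* had an r of 0.583 (permutation p = 0.103, adjusted 0.294) and a rho of 0.550 (permutation p = 0.133, adjusted 0.422), and r was 0.357 without eyes 2 and 8. *Fbxo44* and *Fbxo27* had r values of -0.775 and -0.763 (adjusted permutation p of 0.214 for both), which became -0.315 and -0.396 without the same eyes, so they rest on those eyes. Control eye 8 had the highest *Nfe2l2* and *Fbxo2* levels and the lowest *Fbxo44* and *Fbxo27* levels of its group. *Fbxo2* against *Fbxo44* had an r of -0.210 over the control eyes and 0.733 without eyes 1 and 8.

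**Figure D4:**
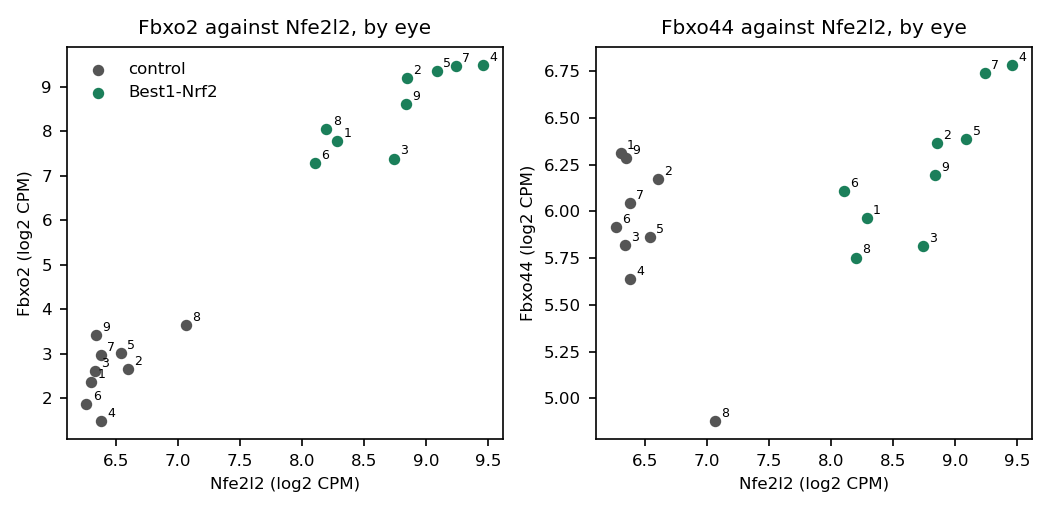
The panels plot log2 CPM of Fbxo2 (left) and Fbxo44 (right) against log2 CPM of Nfe2l2 in each eye, with the mouse number beside each point. Within the Best1-Nrf2 eyes (green) both rise with Nfe2l2 (r of 0.847 and 0.833), and control eye 8 sits apart, at the lowest Fbxo44 level.

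The composition of the samples was set beside these levels in 24 further relations, which were added after the first results had been seen. In Best1-Nrf2 eyes, *Fbxo2* had an r of -0.095 with the mean RPE marker level, -0.577 with cone markers, 0.070 with macrophage markers and -0.126 with the library total, and *Fbxo44* had 0.162, -0.301, -0.253 and -0.366 with the same measures. None of these passed the adjustment (lowest adjusted permutation p of 0.278). In control eyes *Fbxo44* and *Fbxo27* followed the RPE markers, with r of 0.932 and 0.915 (adjusted permutation p of 0.0263 for both), and rho of 0.817 and 0.700 (adjusted permutation p of 0.129 and 0.319). Without eyes 4 and 8 these r values were 0.560 and 0.694. *Fbxo27* also rose with the library total over the control eyes (r = 0.917, adjusted permutation p = 0.0263; rho = 0.850, adjusted permutation p = 0.129; r = 0.744 without eyes 5 and 8). For *Fbxo2* and RPE markers in control eyes the relation did not pass (r = -0.273, adjusted permutation p = 0.719; rho = -0.100, adjusted permutation p = 0.926; r = 0.235 without eyes 4 and 8).

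The genes most like *Fbxo2* over the 18 libraries, after the mean of each group was removed, were *Rngtt* (r = 0.894), *Acat3* (0.851), *Calr3* (0.796), *Hmox1* (0.791) and *Gstm1* (0.779), of 11808 candidates. These values describe the libraries and carry no test, and all points share the same libraries and their depth. In Best1-Nrf2 eyes alone the 5 values of r were 0.909 to 0.982, and in control eyes alone they were 0.218 (*Hmox1*) to 0.773 (*Rngtt*). *Calr3*, a relative of the lectin chaperone calreticulin, was at 1.86 CPM in control eyes and, with Best1-Nrf2, 27.8 CPM. *Hmox1*, heme oxygenase 1, was at 31.03 and 863 CPM, and *Gstm1*, a glutathione transferase, at 92.7 and 6924 CPM. The first in the order, *Rngtt*, which encodes an mRNA capping enzyme, was at 20.1 and 23.1 CPM, and was not called between groups (adjusted p = 0.798, edgeR). *Nfe2l2* stood at number 8 in the order (r = 0.760) and *Fbxo44* at number 907 (r = 0.339).

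The other F-box genes were counted in the same way. Of 74 other genes named Fbxo, Fbxl or Fbxw in the table, 54 were tested, none was called higher and 2 were called lower, where 3.12% and 1.13% of all genes were, so the share in either direction was near the 4.25% of all genes. Their median log2 fold change was 0.08, against -0.03 for all genes tested. *Fbxw4* was at 89.8 CPM in control eyes and, with Best1-Nrf2, 40.1 CPM (log2 fold change, -1.14; adjusted p = 0.0116, edgeR), and *Fbxo24* at 1.91 and 0.823 CPM (-1.14; adjusted p = 0.0428, edgeR), both lower in 9 of 9 mice. *Fbxw4* kept its call in all 9 fits that left out a mouse. With photoreceptor markers as a covariate, a fit that called 32 genes in all, its log2 fold change was -0.28 (adjusted p = 0.7999, edgeR). *Fbxo24* passed in 1 of the 9 fits that left out a mouse, with log2 fold changes of -1.26 to -1.01. With DESeq2, 1 of these genes was called higher, *Fbxo40*, and at an unadjusted p of 0.05 in edgeR 5 were higher. None of the 33 genes of the SCF core and its regulators was called by edgeR (range of log2 fold changes, -0.49 to 0.48), with 3 higher and 1 lower at an unadjusted p of 0.05 and 1, the ubiquitin-conjugating enzyme gene *Ube2d1*, higher with DESeq2. None of the 7 other cullins passed in either tool, or at an unadjusted p of 0.05 in edgeR (0 of 7).

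Genes that act before and after the sugar-binding ligases were counted beside the shares of all genes that were higher, which were 3.12% for edgeR calls, 4.96% for DESeq2 calls and 7.55% at an unadjusted p of 0.05 in edgeR (lower, 1.13%, 2.84% and 5.29%). Among 42 tested genes of ER-associated degradation, 1 was higher and 0 were lower by edgeR (2 higher with DESeq2, and 3 at an unadjusted p of 0.05 in edgeR), which are shares near those of all genes. That gene was *Erlec1*, an ER lectin that reads trimmed sugar chains (log2 fold change, 0.82; adjusted p = 0.0220, edgeR; higher in 9 of 9 mice), and it lost the call without mouse 2, 4, 7 or 8 (log2 fold changes of 0.72 to 0.95 over all 9 fits without a mouse). Of 19 genes of the calnexin cycle and sugar trimming, 1 was higher (3 with DESeq2, and 3 at an unadjusted p of 0.05 in edgeR), *Man1a2*, a mannosidase of the Golgi (log2 fold change, 0.79; adjusted p = 0.00806, edgeR; 9 of 9 mice), which was called in all 9 fits without a mouse but was at 0.29 with the photoreceptor covariate (adjusted p = 0.691, edgeR). Of 18 genes that dispose of free sugar chains, a list that includes *Ngly1*, 2 were called higher and 0 lower by edgeR, 4 higher with DESeq2, and 6 higher and 0 lower at an unadjusted p of 0.05 in edgeR. Each of the shares that were higher was above that of all genes by the same rule, and the median log2 fold change was 0.27. *Glb1*, a lysosomal galactosidase gene, rose from 41.5 to 66.8 CPM (log2 fold change, 0.72; adjusted p = 0.0264, edgeR; 9 of 9 mice). That call was near the threshold, as it held in 2 of the 9 fits without a mouse, with log2 fold changes of 0.66 to 0.85. Macrophage and microglia markers were higher in 7 of 9 mice, and their part in these levels was not tested. None of 31 genes of sugar chain assembly and none of 18 genes of the unfolded protein response was called by edgeR or DESeq2, with medians of 0.11 and -0.05. At an unadjusted p of 0.05 in edgeR, 2 of the first were higher and 1 lower, and 0 of the second passed.

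Of 8 genes whose proteins have been reported as *Fbxo2* substrates, *Cftr*, a chloride channel gene, was called higher (from 1.09 to 3.12 CPM; log2 fold change, 1.46; adjusted p = 0.00569, edgeR; 9 of 9 mice), at a low level in both groups, and in all 9 fits without a mouse. *App*, *Itgb1*, *Bace1*, *Insr*, *Grin1*, *Grin2a* and *Grin2b* were not called, with log2 fold changes of -0.74 to 0.34. Of all genes 3.12% were called higher, and 1 call among 8 genes says nothing of the list. RNA levels do not show whether their proteins changed. Among 11 tested genes around *Ngly1* and *Nfe2l1*, the gene called by edgeR was *Nfe2l2* itself, again beside 3.12% of all genes called higher. DESeq2 also called *Keap1*, which encodes the protein that holds Nrf2 back (log2 fold change, 0.67; adjusted p = 0.0942, edgeR), and *Nfe2l1* had a log2 fold change of -0.23. For comparison, 35 of 42 tested genes of a list of canonical Nrf2 targets passed as higher, against the same 3.12%, and the median of the list was 2.09 on the log2 scale.

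**Figure D5:**
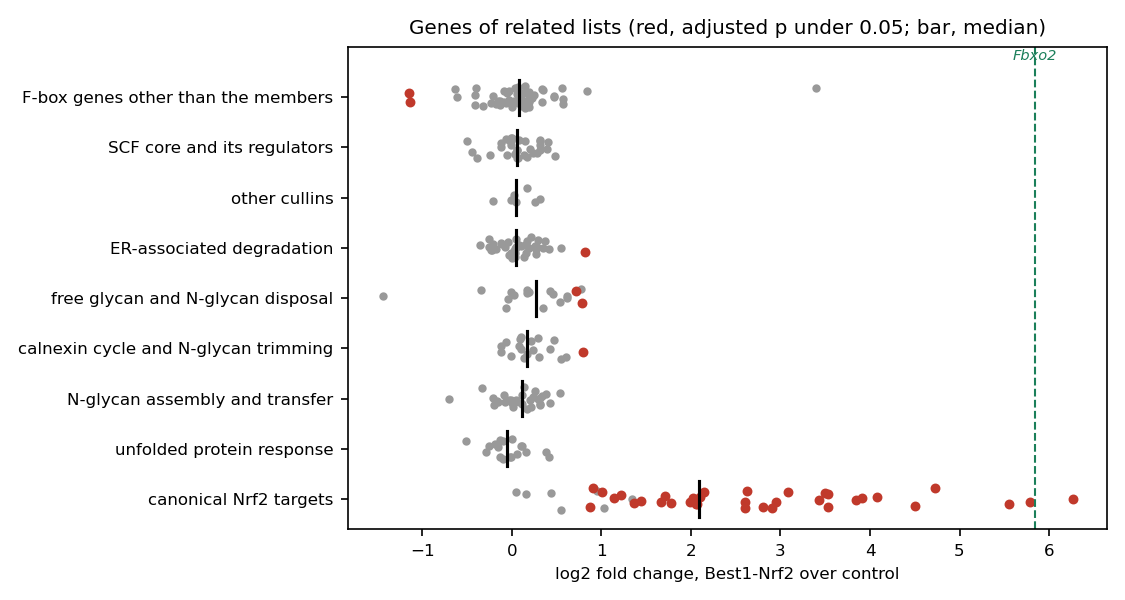
Each point is the log2 fold change of Best1-Nrf2 over control eyes for 1 gene of a list, red where the adjusted p was under 0.05, and black bars are list medians. The dashed line marks Fbxo2 at 5.84, within the range of the canonical Nrf2 targets (0.05 to 6.26) and above every gene of the other lists.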

How the data were processed

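RNA was measured in 18 libraries, from both eyes of 9 mice. The members and lists were chosen with earlier results of these data known. The authors aligned reads to mm10 with STAR, counted them with featureCounts, and estimated transcripts with Salmon 0.8.1. The deposited table holds expected counts per gene, rounded and not scaled, and it does not say which counter made it. The kit amplifies RNA by PCR and no molecular identifiers are described, so precision from counts covers counting error only. Libraries were run in 2 sequencing runs that the labels do not assign, so the run was not modelled.

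Symbols were found for 47224 of 47729 gene IDs. The quasi-likelihood test of edgeR 4.0.16 (R 4.3.3) was run on genes kept by filterByExpr, with TMM scaling, mouse as a block, and Benjamini-Hochberg adjustment over 18958 genes (threshold 0.05). P values measure the spread between these eyes. The block rests on the individual numbers in the labels, which name the mouse. Deviations of paired eyes had a median correlation of -0.00095 (range, -0.373 to 0.644), so these values do not by themselves show which eyes are paired. No libraries of a group were alike within sampling noise (chi-square per degree of freedom of 44.5 or more). Log2 CPM used a prior count of 2. Correlations were tested over all orders of 9 eyes. The script was checked on simulated data. Gene models were from GENCODE (GRCm38), and lengths are the union of a gene's exons.

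Named are the 8 genes, *Nfe2l2*, called genes of each list and of the other F-box genes, 6 protein-coding neighbours on each side, and the 5 genes most like *Fbxo2* over the eyes whose log2 CPM averaged 2 or more. The search for GGGCGG and the relations with markers were added after seeing the data. Alternatives were no block, RLE and upper-quartile scaling, DESeq2 1.42.0, other count filters (none, or at least 10 counts in every library), a threshold of 0.1, photoreceptor markers as a covariate, a prior count of 0.5, and leaving out each mouse. No protein sequences were used here, and some genes of the lists and neighbours are not reported here by name.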

Additional observations from a re-analysis of the deposited data

Results flagged for a closer look

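In a screen of the log2 CPM of the 8 genes within each group of 9 libraries, 3 of 16 groups had a library apart from the rest by Dixon's criterion, where chance alone would give 0.8. Control eye 8 was the lowest of its group for *Fbxo44*, at 4.88, with the next eye at 5.64. The same eye was the lowest for *Fbxo27*, at 3.78, with the next at 5.29. Best1-Nrf2 eye 8 was the highest of its group for *Cul1*, at 7.37, with the next at 6.85. All are eyes of mouse 8, whose control eye also had the lowest mean level of RPE markers. That control eye had the lowest library total too (18956748 counts, with the next library at 28225037). Its r with the median of the other control eyes, 0.816, was the lowest of the control eyes. Without mouse 8 the log2 fold change of *Fbxo44* was 0.29 and that of *Fbxo27* was -0.72.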

How the results depend on the processing

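The *Fbxo2* difference was between 5.59 and 6.02 on the log2 scale over all 17 alternatives. With the mouse block removed, 742 genes were called, of which 647 were among the 806 called with it, and no call of a member changed. DESeq2 called 1478 genes (940 higher and 538 lower), and the photoreceptor covariate left 32 (28 higher and 4 lower). Under that covariate, none of *Erlec1* (log2 fold change, 1.15), *Man1a2* (0.29), *Glb1* (0.58), *Cftr* (1.17), *Fbxw4* (-0.28), *Fbxo24* (-0.85) and *Angptl7* (1.91) was called. The *Fbxo44* difference was 0.71 (adjusted p = 0.401), the *Skp1a* difference 1.01 (adjusted p = 0.255) and the *Nfe2l2* difference 1.84 (adjusted p = 0.163, all edgeR). Errors were larger in that fit (for *Nfe2l2*, an SE of 0.46 against 0.21), so a call could be lost with little change in the difference. Without each mouse in turn the count was 540 to 1046 (416 to 726 higher and 116 to 320 lower). Of the 7 members other than *Fbxo2*, 0 were called, and 1, *Fbxo27*, was called with upper-quartile scaling, with DESeq2, with at least 10 counts in every library, at a threshold of 0.1 and without mouse 8 (range over mice, 0 to 1). Signs changed for values near 0. *Fbxo17* was -0.021 with upper-quartile scaling and -0.10 to 0.10 without a mouse. *Cul1* was 0.011 with no replicate block, 0.012 with no count filter and -0.080 to 0.047 without a mouse. *Ngly1* was -0.12 to 0.031 without a mouse. The causes were not tested. With 9 pairs, the intervals given for the other members bound what could be seen.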
